A study of Caenorhabditis elegans with 36 samples.

Results

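The genes described here encode SR proteins, the serine- and arginine-rich splicing factors of the nematode Caenorhabditis elegans. They were chosen by name, as the 8 genes rsp-1 to rsp-8, and a gene counted as measured where a spot of the array carried its symbol in the platform annotation. Of the 8, rsp-2, rsp-3 and rsp-8 each had 1 such spot, and the other 5 were not analysed here. The 3 genes stood among 12061 named genes, and 15732 genes and unnamed probes in all, that could be tested.

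SR proteins carry 1 or more RNA recognition motifs and a domain rich in alternating arginine and serine. They bind exons in the pre-mRNA, help the spliceosome find splice sites and take part in the choice between alternative exons, and in many animals, worms included, some SR genes give alternative transcripts with early stop codons that are removed by nonsense-mediated decay. rsp-3 is the worm counterpart of human SF2/ASF, and its loss by RNA interference is lethal to worm embryos. rsp-8 is most like human and fly Tra2, whose fly form takes part in sex-specific splicing, and rsp-2 is a further classical SR protein gene. MicroRNAs act through the microRNA-induced silencing complex (miRISC), in which an Argonaute holds the microRNA and a GW182-family protein such as AIN-2 recruits the machinery that represses and degrades the bound mRNA.

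In the study, mRNAs held with miRISC were measured in synchronized worms. All samples came from 1 strain with a single-copy integrated AIN-2::GFP transgene, kept at 20 °C, and no IP from untagged worms is used here, so binding to AIN-2 and other binding to the beads cannot be told apart. The promoter of the transgene is not given in the sources used here. Frozen whole animals were lysed, an anti-GFP antibody was added, and RNA was taken from a small part of the lysate (total RNA, called the input) before the rest was immunoprecipitated (IP). The 18 lysates were 4 of eggs, isolated by bleaching and frozen directly, 4 of L1 larvae after 4 hours on food, 3 of L2 after 21 hours, 4 of L3 after 30 hours and 3 of L4 after 42 hours. Each was cultured and harvested independently, and harvests were used when more than 80% of the animals were at the named stage. Each of the 36 samples is 1 dye channel of an array, with the IP in Cy3 in 12 lysates and in Cy5 in 6 and the input in the other dye.

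Between 31% and 70.4% of the spots of an IP and between 51.3% and 71.4% of those of an input lay above 3 times the noise of their column. Precision is limited by how many arrays there are. The deposited intensities are relative, since each column was scaled to a mean close to 1, so they compare the share of a gene in the RNA of 1 sample with its share in another. The stage labels were set against marker lists. Of 11 embryonic markers, 6 were called lower and 1 higher in the larval inputs than in the egg inputs, where 13.3% of all genes and probes were called lower and 13.6% higher. Of 8 larval cuticle and epidermis markers 5 were called higher, as were 5 of 15 sperm markers. Between eggs and L1, 3 of the 8 cuticle markers were called lower and 1 higher. The input of Egg replicate 4 stood apart, with r of 0.819 to 0.841 to the other egg inputs against 0.923 to 0.932 among those. Its summed cuticle and epidermis marker intensity was 4.37, against 63, 52.4 and 30.4 in replicates 1, 2 and 5. Several results that rest on this lysate are therefore also given without it, or with their range as single lysates were left out. Among the IPs, L3 replicate 1 had r of 0.711 to 0.738 to the other L3 IPs, against 0.82 to 0.876 among those. L4 replicate 3 had r of 0.743 and 0.749, against 0.838 between L4 replicates 1 and 10. These IPs had the lowest shares of spots above 3 times the noise, 31% and 33.5%. The rsp-2 and rsp-3 spots lay at 4.61 and 5.98 times the noise in the former and at 7.8 and 4.26 times in the latter. In whole animals, fewer cells of a type and less RNA per cell cannot be told apart.

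The rsp-8 mRNA was not called above the input in eggs or L1 larvae and was among the brightest spots of the IPs of L2 and L3 larvae. In 3 of the 4 egg lysates its IP lay below its input. In the egg IPs the deposited intensity of rsp-8 was 3.35, 3.15, 4.16 and 3.61 (replicates 1, 2, 4 and 5). In the L1 IPs it was 2.99, 4.12, 4.35 and 4.59 (replicates 2, 5, 10 and 11). The egg and L1 ranges overlapped. In the 3 L2 IPs it was 128, 68.5 and 46.0 (replicates 1, 2 and 3). In the L3 IPs it was 55.2, 38.8, 70.8 and 22.8 (replicates 1, 2, 3 and 5). Every L2 and L3 value lay above every egg and L1 value, and the L2 and L3 ranges overlapped. In the L4 IPs it was 9.02, 11.0 and 14.2 (replicates 1, 3 and 10), below every L2 and L3 value and above every egg and L1 value.

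The input level of rsp-8 did not follow this course. In the egg inputs it was 7.30, 6.63, 1.96 and 7.09 (replicates 1, 2, 4 and 5), so that replicate 4 stood far below the other 3. In the L1 inputs it was 3.87, 3.37, 5.29 and 5.74, and in the L2 inputs 3.91, 2.74 and 4.20. In the L3 inputs it was 3.66, 3.60, 5.21 and 4.19, and in the L4 inputs 5.49, 2.31 and 3.79. The 4 larval stages overlapped in their input level. No difference between stages was called in the rsp-8 input (limma F test, adjusted p = 0.737, against 25% of all genes and probes called in that test). The intervals of the consecutive differences were wide, from -1.07 to 0.57 between eggs and L1 and from -1.03 to 0.72 between L1 and L2 (95%, log2). Without Egg replicate 4 the input was called lower in larvae than in eggs, by -0.93 on the log2 scale (adjusted p = 0.0035), against -0.43 with it (adjusted p = 0.35). The L1 input was then at -0.73 against eggs (adjusted p = 0.048), and the F test was called (adjusted p = 0.0295).

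**Figure D1:**
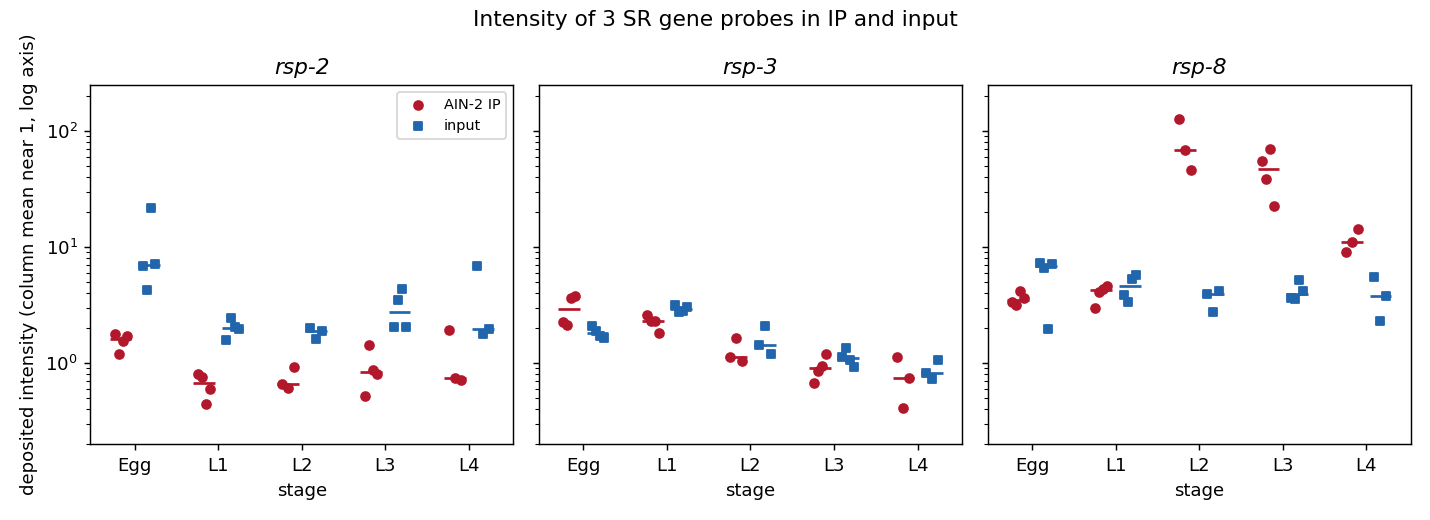
Deposited intensity (log axis, columns scaled to a mean near 1) of the rsp-2, rsp-3 and rsp-8 spots in each IP (red circles) and input (blue squares) by stage, with horizontal lines at the group medians. The rsp-8 IP values of L2 (46.0 to 128) and L3 (22.8 to 70.8) lie above all other values of that gene, while rsp-2 is lower in the IP than in the input at every stage.

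The rank of the rsp-8 spot shows the same change without any scaling. Among the 23232 spots of a sample, rsp-8 ranked between 1161 and 1566 in the egg IPs and between 1106 and 1482 in the L1 IPs. In the L2 IPs it ranked 5, 27 and 10. In the L3 IPs it ranked 52, 9, 9 and 130, and in the L4 IPs 671, 447 and 363. In the larval inputs its rank stayed between 959 and 1654. The L2 IP of replicate 3 (65246 scanner steps) and the L3 IP of replicate 2 (65380 steps) lay near the top of the scanner scale, so these 2 intensities are lower bounds. Those 2 IPs held 12 and 109 spots over 65000 steps, and the order among such spots is uncertain. The ranks of 10 and 9 there place rsp-8 only within that group.

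**Figure D2:**
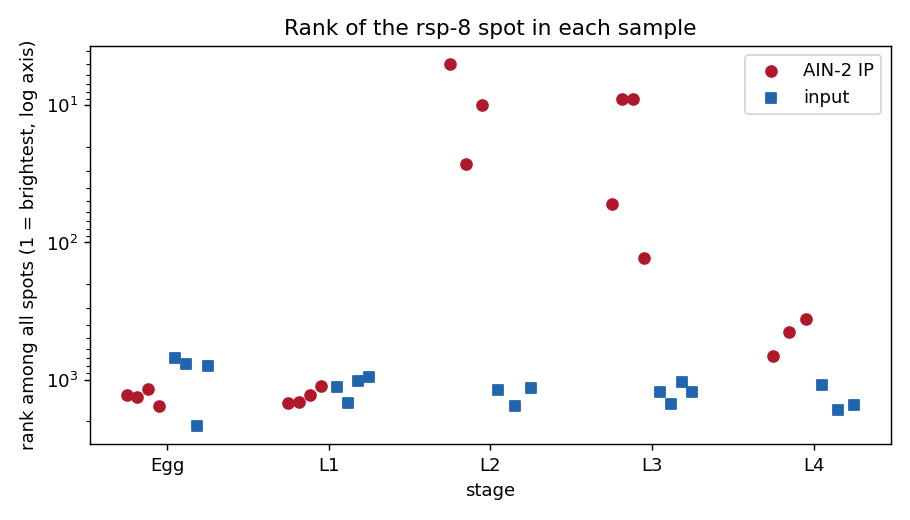
Rank of the rsp-8 spot among the 23232 spots of each sample (log axis, 1 is the brightest) in IPs (red circles) and inputs (blue squares) by stage. The 7 IPs of L2 and L3 rank between 5 and 130, and the inputs rank between 698 and 2183.

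Setting each IP against its own input asks which mRNAs were held with miRISC. For rsp-8 the log2 difference was -1.24, -0.99, 1.23 and -1.15 in eggs, -0.34, 0.10, -0.43 and -0.23 in L1, 3.81, 3.91 and 3.50 in L2, 3.10, 4.12, 3.64 and 2.76 in L3, and 0.84, 2.04 and 2.20 in L4. It was above 0 in every lysate of L2, L3 and L4. The fitted difference was 3.77 ± 0.369 at L2 (SE, adjusted p = 7.7e-07), a 13.7-fold higher level in the IP, where 6.26% of all genes and probes were called higher. It was 3.46 ± 0.327 at L3 (11-fold, adjusted p = 3.49e-07) and 1.73 ± 0.369 at L4 (3.31-fold, adjusted p = 0.00213), where 8.99% and 8.21% of all were called higher. At L2 the difference held place 56 from the highest of the 15732 genes and probes, at L3 place 91 and at L4 place 1043. The size at L2 depended on the scaling, at 4.36 with values as deposited, 4.53 with a loess fit within lysates and 3.63 with columns centred on their medians. As deposited, the IP stood at 32.7, 25 and 11 times the input in L2 replicates 1, 2 and 3. The L4 call ended with columns centred on their medians (1.29, adjusted p = 0.0999) and in the lysates whose input titles are spelled tot rather than Tot (1.44, adjusted p = 0.151).

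No call was made for rsp-8 at the 2 earlier stages. The difference was -0.48 ± 0.327 in eggs (adjusted p = 0.328) and -0.22 ± 0.316 in L1 (adjusted p = 0.7), and the L1 value was 0.08 with columns centred. In eggs 10.4% of all genes and probes were called higher. From eggs to L1 the rsp-8 difference was 0.26 (adjusted p = 0.878), where 2.39% of all were called, 1.46% higher and 0.928% lower. With single lysates left out this step ran from -0.045 to 0.837 and was not called in any of these fits. Egg replicate 4, the lysate with the low input, was above 0 while the other 3 egg lysates were below. Without it the egg difference was -1.06 (adjusted p = 0.0031), a call in the direction of a lower IP.

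Between L1 and L2 the IP to input difference of rsp-8 rose by 4.00 ± 0.486 (16-fold, adjusted p = 0.000293). In that comparison 0.0826% of all genes and probes (13 of 15732) were called higher and 0.00636% lower, 0.089% in all. The IP level itself rose by 3.84 ± 0.3 between L1 and L2 (adjusted p = 5.35e-07), where 0.979% of all were called higher. The summed intensity of the 8 cuticle and epidermis markers was also higher in L2 than in L1, at 28.6 to 69.9 against 4.22 to 6.28 in the IPs and 37.7 to 77.8 against 9.67 to 14.7 in the inputs. In the IP to input difference 1 of these 8 was called between L1 and L2, and the part of that tissue in the rsp-8 value was not tested. Between L2 and L3 neither the difference (-0.31, adjusted p = 0.92) nor the IP level (-0.35, adjusted p = 0.837) was called. Between L3 and L4 the IP level fell by 1.90 on the log2 scale (SE 0.298, adjusted p = 0.01), where 0.0381% of all were called lower. That call ended with columns centred (-2.30, adjusted p = 0.247), with no variance trend (0.104), in the tot lysates (0.0602) and with only values above 3 times the noise (0.054). It also ended without L4 replicate 1 (-1.68, adjusted p = 0.123), without L4 replicate 3 (-1.96, adjusted p = 0.127) and with the 2 values near the top of the scanner scale set to missing (-1.79, adjusted p = 0.0541). The L4 difference between IP and input was 1.73 lower than that of L3 on the log2 scale (-1.73 ± 0.484), which was not called (adjusted p = 0.728). Limma called 0 of the 15732 genes and probes in that comparison, while 1077 had an unadjusted p under 0.05. The L2 to L1 call of the difference was lost in the tot lysates, which hold only 1 L1 lysate (4.08, adjusted p = 0.63).

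**Figure D3:**
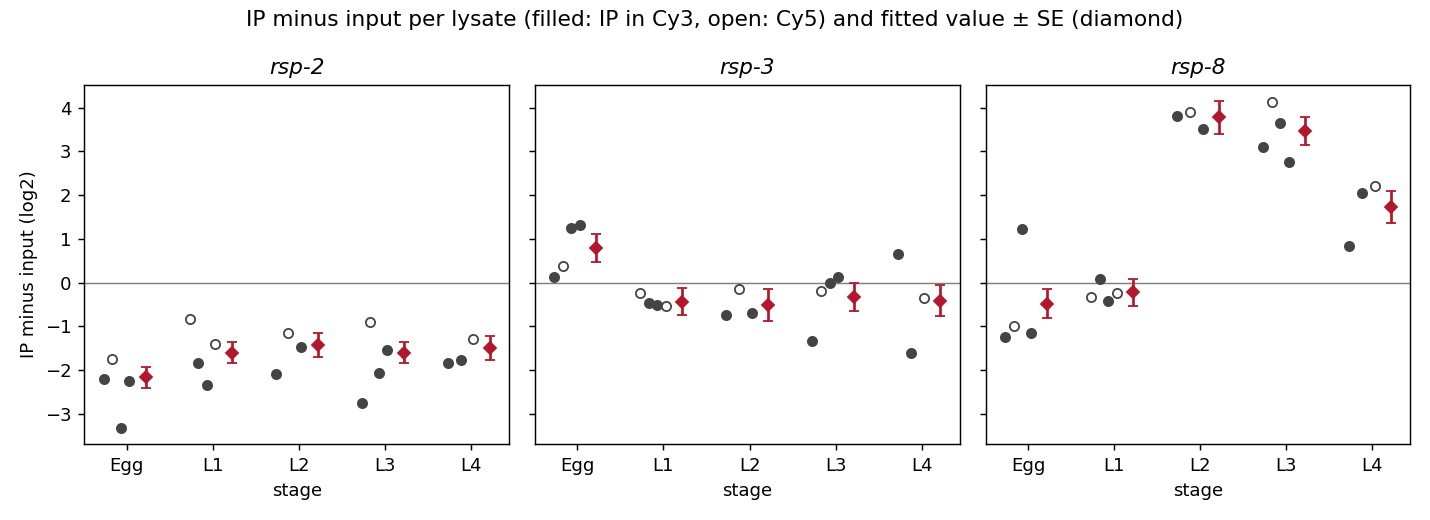
IP minus input (log2) in each lysate for rsp-2, rsp-3 and rsp-8 by stage, with the IP in Cy3 (filled) or Cy5 (open), and the fitted value with its standard error (red diamonds). All 18 rsp-2 values lie below 0, rsp-3 lies above 0 only in eggs and 3 larval lysates, and rsp-8 rises from -0.22 in L1 to 3.77 in L2.

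The rsp-2 mRNA was lower in the IP than in the input at every stage. In eggs its intensity was 1.80, 1.21, 1.55 and 1.70 in the IPs and 6.86, 4.30, 21.8 and 7.11 in the inputs (replicates 1, 2, 4 and 5). In L1 it was 0.812, 0.766, 0.448 and 0.595 in the IPs and 1.57, 2.46, 2.04 and 1.98 in the inputs. The IP and input values did not overlap at either stage. In L2 it was 0.666, 0.609 and 0.919 in the IPs and 2.02, 1.62 and 1.90 in the inputs. In L3 it was 0.525, 1.43, 0.872 and 0.810 in the IPs and 2.06, 3.49, 4.39 and 2.06 in the inputs. These 2 stages again showed no overlap. In L4 the IPs stood at 1.94, 0.749 and 0.710 and the inputs at 6.92, 1.79 and 1.96. There L4 replicate 1 was high in both fractions and the ranges overlapped, though each IP lay below its own input.

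The log2 difference of rsp-2 was below 0 in 18 of 18 lysates. It was -2.16 ± 0.241 in eggs (4.46-fold lower, adjusted p = 1.51e-06), -1.60 ± 0.234 in L1 (adjusted p = 2.9e-05), -1.43 ± 0.273 in L2 (adjusted p = 0.00116), -1.60 ± 0.241 in L3 (adjusted p = 6.46e-05) and -1.49 ± 0.273 in L4 (adjusted p = 0.000539). The egg value ran from -2.284 to -1.925 with single lysates left out, and was called each time. Of all genes and probes 11.8% were called lower in eggs, 9.83% in L1, 9.99% in L2, 12.1% in L3 and 11.2% in L4. The mean over the 5 stages was -1.65 ± 0.118 (3.15-fold lower, adjusted p = 4.5e-10), where 25.1% of all were called lower. It held place 723 from the lowest of the 15732 genes and probes. The L2 value was not called when IP and input were fitted as unpaired groups (adjusted p = 0.0617), and in the tot lysates neither L1 (-1.36, adjusted p = 0.346) nor L4 (-1.28, adjusted p = 0.0804) was called. No difference between stages was called (F test, adjusted p = 0.577). At each stage the lysates with the IP in Cy5 were nearest to 0, for example -0.831 in L1 replicate 2 against -2.33 in L1 replicate 10. The fit holds a dye term, and the rsp-2 calls were also made at each stage without it.

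The total level of rsp-2 was highest in eggs. Between eggs and L1 the input fell by 1.96 on the log2 scale (3.9-fold, SE 0.375, adjusted p = 0.000951), where 11.4% of all genes and probes were called lower. All 4 L1 inputs lay below all 4 egg inputs. The following steps were not called, at 0.03 from L1 to L2 (adjusted p = 0.991), 0.32 from L2 to L3 (adjusted p = 0.887) and 0.06 from L3 to L4. Of all genes and probes, 1.81% were called higher and 0.21% lower at the first of these steps. At the last, 0.82% were called higher and 0.0318% lower, and from L2 to L3 0 were called. Over the 4 larval stages together the input was 1.77 below that of eggs (-1.77 ± 0.298, adjusted p = 0.000225, where 13.3% of all were called lower). With single lysates left out this value ran from -1.94 to -1.446. The F test of any difference was called (adjusted p = 0.00323, where 25% of all were called). That test was not called with columns centred (adjusted p = 0.0741) or in the tot lysates (0.0825), where the step from eggs to L1 was not called either (adjusted p = 0.168). Without Egg replicate 4 that step was -1.66 (adjusted p = 0.00195). The Egg input of replicate 4 was the highest, with rsp-2 at rank 279, against ranks 727, 1088 and 784 in the other 3. L4 replicate 1, the larval lysate with the highest rsp-2 input (6.92), also had the highest summed intensity of 23 germ line markers in its input (83.3, against 51.3 and 36.2 in the other L4 inputs). That sum was 35.6 to 54.7 in eggs, 22.6 to 35.7 in L1, 25.2 to 27.3 in L2 and 22.1 to 35.5 in L3, and 8 of the 23 markers were called lower in L1 than in egg inputs. The inputs of L4 replicate 1 and Egg replicate 4 also had the most spots over 65000 scanner steps of all inputs (166 and 165). The parts of the germ line and of the scanner limit in the rsp-2 level were not tested.

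In the IP, rsp-2 showed the same order of stages with less certainty. Its mean log2 level was 0.71 in eggs (SD 0.18, n = 4), -0.62 in L1 (SD 0.49, n = 4), -0.47 in L2 (SD 0.30, n = 3), -0.35 in L3 (SD 0.89, n = 4) and -0.15 in L4 (SD 0.77, n = 3). The difference between L1 and eggs missed the threshold (-1.41 ± 0.423, adjusted p = 0.0528). It passed without L3 replicate 1 (adjusted p = 0.0256), L4 replicate 1 (0.0251), L4 replicate 3 (0.04957) or L4 replicate 10 (0.0351), with values as deposited (0.04945) and over features with values in all 36 samples (0.0359). The larval stages together lay 1.14 below eggs (-1.14 ± 0.336, adjusted p = 0.0325, where 5.26% of all were called lower). This call ended without any one of Egg replicates 1, 2, 4 and 5, L1 replicate 10 and L2 replicate 1, with adjusted p from 0.0525 to 0.104. It also ended with columns centred (0.423), in the tot lysates (0.308), with only values above 3 times the noise (0.133) and with no variance trend (0.071).

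The rsp-3 mRNA, which encodes the SF2/ASF counterpart, lay above the input in every egg lysate and below it in every L1 and L2 lysate, without a call at any stage. In eggs its intensity was 2.25, 2.15, 3.62 and 3.80 in the IPs and 2.07, 1.90, 1.71 and 1.66 in the inputs, with no overlap. In L1 it was 2.59, 2.32, 2.33 and 1.81 in the IPs and 3.14, 2.77, 2.80 and 3.03 in the inputs, again without overlap but in the opposite order. In L2 it was 1.14, 1.64 and 1.04 in the IPs and 1.43, 2.11 and 1.20 in the inputs. In L3 it was 0.681, 0.859, 0.952 and 1.19 in the IPs and 1.13, 1.36, 1.07 and 0.925 in the inputs. In L4 it was 1.14, 0.409 and 0.744 in the IPs and 0.827, 0.729 and 1.06 in the inputs. From L2 on the 2 fractions overlapped.

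The fitted values show how far these differences stood from the threshold. The log2 difference was 0.79 ± 0.316 for eggs (adjusted p = 0.0844, 4 of 4 above 0), -0.44 ± 0.306 in L1 (adjusted p = 0.365, below 0 in 4 of 4), -0.51 ± 0.358 in L2 (adjusted p = 0.374, below 0 in 3 of 3), -0.33 ± 0.316 in L3 (adjusted p = 0.523) and -0.41 ± 0.358 in L4 (adjusted p = 0.478). The lowest values were -1.34 in L3 replicate 1 and -1.602 in L4 replicate 3, from IP spots at 5.98 and 4.26 times the noise. The other L3 lysates stood at -0.188, 0.002 and 0.118, and the other L4 lysates at 0.661 and -0.341. With single lysates left out, the fitted value ran from -0.487 to -0.022 in L3 and from -0.971 to 0.16 in L4. The egg value passed with a loess fit within lysates (0.80, adjusted p = 0.0205), with an offset of 0.1 before log2 (0.76, adjusted p = 0.0386) and without L4 replicate 1 (0.82, adjusted p = 0.0369). Over the 5 stages the mean was -0.18 ± 0.155 (adjusted p = 0.368), while with only values above 3 times the noise it was -0.59 and called (adjusted p = 0.04956). The 4 larval stages together lay 1.21 below eggs in this difference (-1.21 ± 0.35), at an adjusted p of 0.04998 that sits on the threshold, where 2.52% of all genes and probes were called lower and 5.15% in either direction. From eggs to L1 alone the step was -1.22 ± 0.44 and was not called (adjusted p = 0.182), but passed with loess (-1.25, adjusted p = 0.04961) and with the offset (-1.25, adjusted p = 0.0476). The call held when L3 replicate 1, 3 or 5 or L4 replicate 1 was left out and ended when any one of the other 14 lysates was left out, with adjusted p up to 0.17. It also ended in the tot lysates (0.471), with columns centred (0.384), with only values above 3 times the noise (0.191), with IP and input unpaired (0.134) and with no variance trend (0.115).

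The total level of rsp-3 rose from eggs to L1 and was lower at each later stage. Its mean log2 input level was 0.80 in eggs (SD 0.29, n = 4), 1.56 in L1 (SD 0.17, n = 4), 0.85 in L2 (SD 0.32, n = 3), 0.16 in L3 (SD 0.28, n = 4) and -0.35 in L4 (SD 0.25, n = 3). The F test of any difference was called (adjusted p = 0.000285, where 25% of all genes and probes were called), but not in the tot lysates (0.0849). The step from eggs to L1, of 0.69 ± 0.241, was called narrowly (adjusted p = 0.0471, where 11.1% of all were called higher). It was lost when any one of 14 lysates was left out and held without Egg replicate 1, L3 replicate 1, L4 replicate 1 or L4 replicate 10. It was also lost in the tot lysates (adjusted p = 0.489), with columns centred (0.343), with values as deposited (0.0869), with only values above 3 times the noise (0.0851) and with no variance trend (0.0812). Each of the later steps, of -0.66, -0.67 and -0.53, was not called by itself (adjusted p = 0.281, 0.837 and 0.651). After normalization all L4 inputs lay below all inputs of the other 4 stages, while as deposited the L3 and L4 inputs overlapped.

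In the IP, rsp-3 was highest in eggs, with a mean log2 level of 1.56 (SD 0.36, n = 4). It stood at 1.12 in L1 (SD 0.29, n = 4), 0.32 in L2 (SD 0.63, n = 3), -0.19 in L3 (SD 0.48, n = 4) and -0.78 in L4 (SD 0.95, n = 3). The larval IPs together were 1.48 below the egg IPs (-1.48 ± 0.32, adjusted p = 0.00399, where 5.26% of all were called lower). The F test was also called (adjusted p = 0.00428, where 10.1% of all were called). Neither was called with columns centred (adjusted p = 0.188 and 0.14) or in the tot lysates (0.143 and 0.264), and the larval difference missed the threshold with only values above 3 times the noise (0.0567). Neighbouring stages were not called apart.

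Between the IP and the input over the mean of the 5 stages, 2 of the 3 SR genes were called, rsp-2 lower and rsp-8 higher (1.65 ± 0.16, adjusted p = 4.07e-08), where 44.2% of all genes and probes were called. At single stages the number called was 1 of 3 in eggs and in L1 (22.3% and 22.9% of all) and 2 of 3 in L2, L3 and L4 (16.3%, 21.1% and 19.4% of all). The F test for a change of the IP to input difference between stages was called for rsp-8 alone among the 3 (adjusted p = 1.38e-05, where 2.68% of all were called). The adjusted p was 0.312 for rsp-3. Larvae together lay 2.67 ± 0.361 above eggs for rsp-8 (adjusted p = 0.000126, where 2.63% of all were called higher), 1.21 below for rsp-3 and 0.63 ± 0.267 above for rsp-2 (adjusted p = 0.211). Across the 18 lysates, which share stage and array, the differences of the 3 genes correlated weakly, with Pearson r of -0.24 between rsp-2 and rsp-3, 0.18 between rsp-2 and rsp-8 and -0.38 between rsp-3 and rsp-8.

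A class was drawn up from the calls of rsp-8 itself, so that rsp-8 belongs to it is not a result, and its size carries no test. Called higher in the IP at L2, L3 and L4 and at neither of the 2 earlier stages were 25 of 15732 (0.159%), rsp-8 among them. The L4 call of rsp-8, on which its place rests, ended with columns centred (adjusted p = 0.0999) and in the tot lysates (0.151). The lack of a call at the 2 earlier stages does not show that IP and input were equal there. Of the 13 genes and probes whose difference was called higher in L2 than in L1, 0 had an input that was called between these stages. In the input fit, limma called 2.02% of all genes and probes between L1 and L2.

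Among 6615 named genes with values in all 18 lysates, the 5 whose differences correlated best with those of rsp-8 were rei-2 (Pearson r = 0.956), T14A8.2 (0.902), the protein disulphide isomerase gene pdi-1 (0.9), F53A3.1 (0.893) and hpo-18 (0.891). They differed in level. rei-2 went from 0.15 in eggs and 0.58 in L1 to 4.72 in L2, 3.64 in L3 and 2.21 in L4, and F53A3.1 went from 0.89 and 0.30 to 4.87, 3.44 and 2.67. Both lay above the input by more than rsp-8 did at L2. hpo-18 was below the input at every stage, between -2.92 and -1.38, and shares only the shape. For rsp-2 the best matches were pole-3, a DNA polymerase subunit gene (0.885), the translation factor gene ifg-1 (0.861), bcl-7 (0.859), ssna-1 (0.859) and lin-13 (0.845). Each had its lowest fitted difference in eggs, as rsp-2 did, and of the 6 genes only rsp-2 was called below the input at L2. For the input level of rsp-2 the best of 9595 genes were chat-1 (0.976), blos-9 (0.968), R05H5.3 (0.966), ska-1 (0.965) and F07F6.8 (0.96), and 86 genes had an r above 0.9. These values describe likeness over lysates of 5 stages and carry no test.

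**Figure D4:**
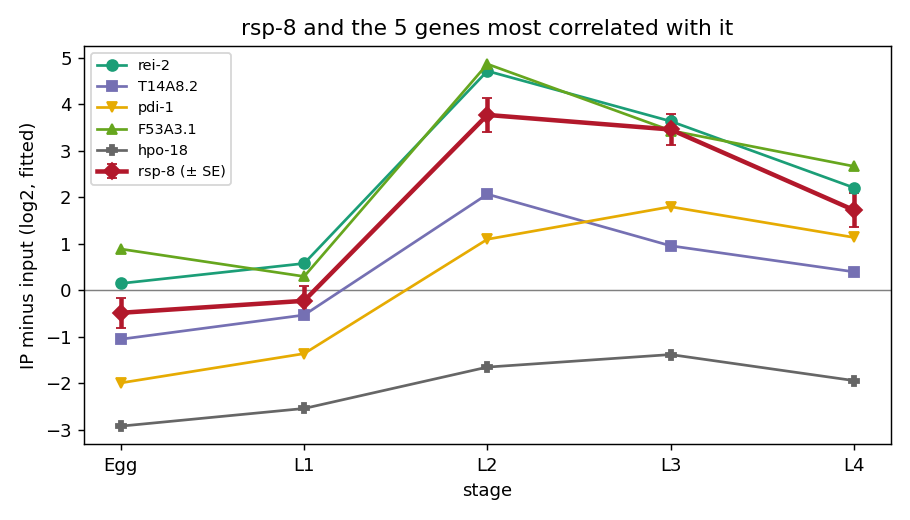
Fitted IP minus input (log2) by stage for rsp-8 (red diamonds, with standard errors) and the 5 named genes whose values over the 18 lysates correlated best with it. rei-2 and F53A3.1 follow rsp-8 at a similar height, with 4.72 and 4.87 at L2, while hpo-18 stays below 0 throughout.

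Lower calls outnumbered higher ones among other genes of the splicing machinery. Of 105 listed genes of splicing, mRNA export and nonsense-mediated decay, 75 were measured. At the mean of the 5 stages 14 were called higher (18.7%) and 37 lower (49.3%), against 19.2% and 25.1% of all genes and probes. Their median was -0.54, against -0.09 for all. With columns centred on their medians 7 were called higher and 40 lower.

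In each list of spliceosome components lower calls were the more frequent. Of 9 measured factors of the 3′ splice site and the U2 particle, 7 were lower and 1 higher (median -0.91). The lowest was rnp-3, a snRNP protein gene (-1.73 ± 0.199, adjusted p = 4.49e-07), while repo-1, an SF3a subunit gene, was higher (3.10 ± 0.188, adjusted p = 4.36e-11). Of 16 Sm, LSm and U1 proteins, 10 were lower and 4 higher (median -0.84). Among those that could be named, lsm-5 was lowest (-1.80 ± 0.174, adjusted p = 3.94e-08). The highest was smi-1, the counterpart of an SMN partner (0.54 ± 0.0891, adjusted p = 4.75e-05). Of 19 PRP and MOG proteins, 10 were lower and 2 higher (median -0.55), with eftu-2, the U5 GTPase gene, lowest (-1.81 ± 0.209, adjusted p = 4.7e-07) and mog-3 highest (1.89 ± 0.186, adjusted p = 4.85e-08). Of 9 exon junction and export factors, 7 were lower and 0 higher (median -0.68), with aly-3 lowest (-2.12 ± 0.238, adjusted p = 3.44e-07). That the named genes had the same sign in every lysate follows from this choice and is not a result.

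The regulators of alternative splicing stood on the other side. Of 14 measured hnRNPs and tissue splicing regulators, 7 were called higher and 1 lower (median 0.50, and 0.33 with columns centred). The highest was mec-8, a splicing regulator needed in touch receptor neurons, at 3.45 ± 0.108 (adjusted p = 4.17e-15, above 0 in 18 of 18 lysates). It was already higher in eggs (2.82) and L1 (4.55), unlike rsp-8. Of 6 nonsense-mediated decay factors, 0 were higher and 1 lower (median -0.23). Of the 5 listed SR kinases and SR-related coactivators only 2 were measured, 1 of them lower.

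**Figure D5:**
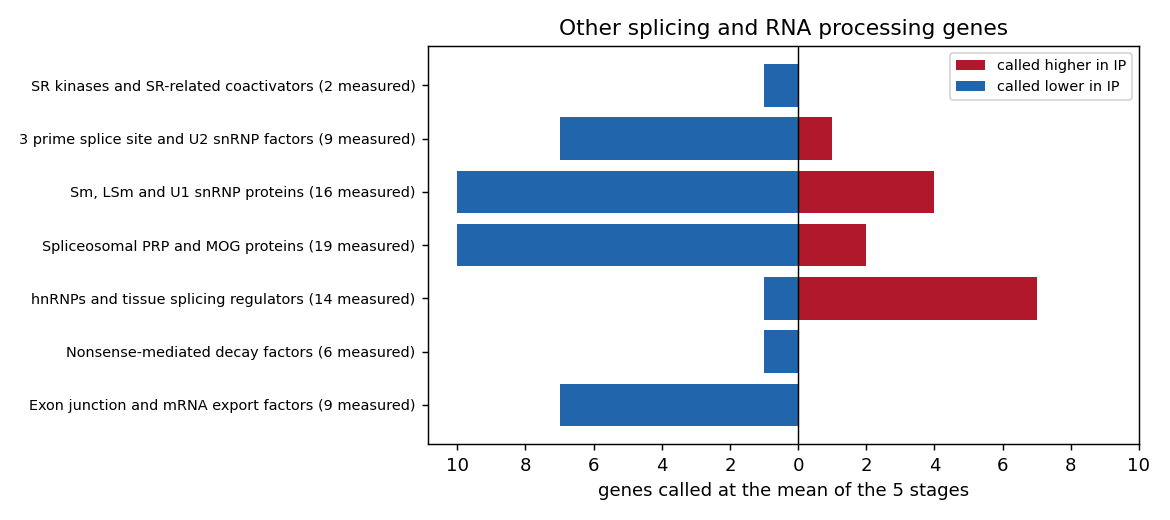
Number of genes of each splicing or RNA processing list called higher (red, to the right) or lower (blue, to the left) in the IP at the mean of the 5 stages, with the number measured beside each name. Lower calls outnumber higher calls in the spliceosome lists (7 against 1, 10 against 4 and 10 against 2), and higher calls lead among hnRNPs and tissue regulators (7 against 1).

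The nearest genes on the chromosome were looked at for comparison. In the RefSeq annotation of WBcel235, rsp-8 lies between C18D11.3 and ntl-3, a CCR4-NOT subunit gene. C18D11.3 was at -1.41 in L2, which was not called (adjusted p = 0.188), and at -1.60 in L3. At the mean of the stages it was called lower (-1.44, adjusted p = 0.000543). ntl-3 was at 0.12 in L2 (adjusted p = 0.941), at -0.35 in L3 and at 1.96 in L4. Its mean over the stages was not called (0.33, adjusted p = 0.454). The microRNA gene mir-1832.1 is annotated inside the span of rsp-8 and was not analysed here. W02B12.1, which neighbours rsp-2, was at -0.89 ± 0.131 at the mean of the stages (adjusted p = 1.21e-05), below 0 in 17 of its 18 lysates, and elpc-2, next to rsp-3, was at -1.03 ± 0.291 (adjusted p = 0.00698). Which part of each transcript the probes match is not given in the sources used here, so isoforms cannot be told apart.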

How the data were processed

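The authors' deposited values are intensities, linear and background subtracted (values below 0 occur), with column means close to 1. Per the labels' protocols RNA was amplified once and labelled with Cy3 or Cy5. Scanner, image software, scaling and probe positions are not given in the sources used here. Each column is in whole multiples of 1 scanner step (tolerance 0.05). Values of 0 or less were treated as missing, the rest put on the log2 scale and quantile normalized over the 36 columns, and probes of a gene averaged. Of 23232 spots, 17461 had 1 gene symbol (none had several) and 5771 had none. Testing needed both values in 2 or more lysates of each stage.

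Models in limma 3.58.1 under R 4.3.3 took 1 value per lysate (IP minus input, input alone or IP alone), with stage and dye as terms and variances moderated along a trend on mean level. The labels say that the input came from the lysate that was immunoprecipitated, and the deviations of IP and input of 1 lysate from their stage means gave r across genes of 0.287 to 0.621 in 18 of 18 lysates, so the difference within the lysate was used. Tests were two-sided. Adjusted p is Benjamini-Hochberg over all 15732 genes and probes, called under 0.05. Errors after ± are standard errors, and larvae against eggs is the mean of the 4 larval stages. The scripts were tested on simulated data. Figures were drawn with Python 3.11.15 and matplotlib 3.10.9.

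The SR genes, the lists and the comparisons were chosen with earlier results of these data known. All measured SR genes are named. Of each list the highest and lowest called gene with 1 sign in every lysate is named, and for rsp-8 (highest mean difference), rsp-2 (lowest) and the rsp-2 input (widest range of stage means) the 5 genes of highest Pearson r. Alternatives were other scalings, an offset, filters, the brightest probe, no dye term, no variance trend, lysates of one title spelling, unpaired groups, a replicate block, and leaving out each lysate. Setting values near the top of the scanner scale to missing and a term for title spelling were chosen after seeing the data.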

Additional observations from a re-analysis of the deposited data

Results flagged for a closer look

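In 27 sets of 4 lysates (3 genes, 3 stages, and the IP, the input and their difference), 3 held a value far from the others by Dixon's test at the 95% level, which chance gives in about 1 in 20 sets. The rsp-8 input of Egg replicate 4 was 0.923 on the log2 scale, against 2.795 to 3.11 in the other egg inputs. The rsp-8 difference of the same lysate was 1.228, against -1.237 to -0.987, and rests on that input. That whole input stood apart from the other egg inputs (r of 0.819 to 0.841, against 0.923 to 0.932 among the rest), its cuticle marker sum was 4.37 against 30.4 to 63, and rsp-2 was at its highest there. The rsp-3 IP level of L1 replicate 2 was 1.555, against 0.95 to 1.021 in the other L1 IPs.

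The IP to input difference differed between stages by the test of the difference itself in 3 comparisons. For rsp-8 it was 3.998 higher in L2 than in L1, and 2.667 higher in the larval stages together than in eggs. The second value ran from 2.393 without Egg replicate 2 to 3.27 without Egg replicate 4. For rsp-3 the larval stages together were at -1.209 against eggs, a call on the threshold that most left-out lysates ended.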

How the results depend on the processing

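Over 32 alternatives the 63 tested values of the 3 genes gave 1956 recomputed values. Of these, 1875 stayed on their side of the threshold, 66 lost a call, 15 gained one and 0 reversed a call, while 62 changed sign without being called in either setting. Calls among the 3 genes numbered 2 for the IP minus input mean, 8 over single stages, 1 for its F test and 3 for its stage contrasts, 2 and 3 for the F test and contrasts of the input, and 2 and 5 for those of the IP. Of all genes and probes, 44.2% were called for that mean and 16.3% to 22.9% at single stages. The F tests called 2.68% of all for the difference, 25% for the input and 10.1% for the IP. Single contrasts called at most 5.15%, 26.8% and 11.8% of all. Leaving out 1 lysate, the calls among the 3 genes were, in the order above, 2 to 2, 8 to 9, 1 to 1, 2 to 3, 2 to 3, 2 to 4, 2 to 2 and 4 to 6. With columns centred the input F test kept 1, the IP F test 1 and the IP contrasts 2, and 7 listed genes in place of 14 were called higher. The IP contrasts held 2 calls with only values above 3 times the noise and 3 with no variance trend. In the tot lysates 5 stage values, 1 contrast of the difference, 0 input F tests, 1 input contrast, 1 IP F test and 2 IP contrasts were called, with fewer samples in the fit. Fitted with no replicate block, IP and input unpaired, rsp-2 at L2 (adjusted p = 0.0617) and rsp-3 in larvae against eggs (0.134) lost their calls. A replicate block on title numbers ended only the latter (-1.189, adjusted p = 0.052). Same-numbered lysates of different stages had r from -0.207 to 0.279 in 19 pairs, 8 of them over 0.1, so the numbers were not taken as pairs. Over all genes and probes, calls ranged from 2 to 44 for L2 against L1 (14 in the main setting), 136 to 1816 for larvae against eggs (810) and 33 to 1135 for the F test of the difference (422). The mean had 6960 calls and 4433 in the tot lysates, and L2 had 2557 and 889 with no replicate block, 1357 in the tot lysates, 1086 without L2 replicate 1 and 1586 without L2 replicate 2. The input F test had 3931, 1559 in the tot lysates and 2307 above the noise, and the IP F test 1592, 378 and 824, and 1049 without Egg replicate 2. Of the L2 calls 38.5% were higher, against 57.7% as deposited, 21.4% centred and 50.3% with loess, and the centred share was 36.7% in eggs (46.8%), 67.2% in L1 (57.1%), 32.5% in L3 (42.7%) and 30.6% in L4 (42.4%, and 52.8% with loess). The median of all features at the mean was -0.09, and 0.14 as deposited. The cause of these changes was not tested.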
